A study of Homo sapiens with 36 samples.

Results

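Proteasome subunit mRNAs were followed in 4 lines derived from MDA-MB-231 cells, an established human line of triple-negative breast cancer, across total RNA and a pair of ribosome fractions. The members were all gene symbols of the count tables made of PSMA, PSMB, PSMC or PSMD and a number, which gave 39 of 26485 symbols. Of these, 38 had at least 1 count and 37 passed the filter on low counts in each fraction.

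Every line carried a CRISPR interference construct and an overexpression construct. UAU cells overexpressed the isoleucine tRNA with the UAU anticodon (tRNAIleUAU) and had their interference directed at eGFP. GAUi cells had interference directed at the isoleucine tRNA with the GAU anticodon (Ile GAU) and the control overexpression construct. Isoswitch cells carried both changes, and control cells had eGFP interference with the control overexpression construct. The labels give the source as "Xenograft Cell Line" and do not say whether a line was a clone, or whether the replicates came from cultures grown separately. The p-values therefore cover only the spread among these libraries, which may be technical. All cells were treated with cycloheximide, which stalls ribosomes on mRNA, at 100 µg/mL for 5 minutes before lysis. The high-translating fraction held more than 2 polysomes, as the labels put it, the low-translating fraction held single ribosomes and the first polysome peak, and total RNA was the input. Each of the 12 groups had 3 libraries, labelled A, B and C, made with the Lexogen QuantSeq 3' kit, which reads the 3' ends of polyadenylated RNA.

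Library totals ran between 5192464 and 8974001 counts for the high fraction, between 5310594 and 8234332 for the low fraction, and between 6679340 and 8973050 for total RNA. Levels are given as CPM, the usual count unit scaled to library size, here with TMM factors over all 36 libraries. They are not scaled to transcript length. Each library was made from 500 ng RNA, so CPM gives the share of an mRNA within a fraction. It does not give the amount of that mRNA in the fraction. A set of 6 markers of MDA-MB-231 summed to 2821 to 7042 CPM per library, and 7 genes listed as at or near 0 in this line summed to 18.9 to 41.0 CPM. Of these 7, EPCAM (6.13 to 27.5 CPM), GATA3 (6.87 to 23.6 CPM) and ERBB3 (0.178 to 2.45 CPM) had counts in every library. The others were at most at 0.858 CPM. Fibroblast, leukocyte and endothelial markers summed to at most 5.75, 18.7 and 8.09 CPM. Libraries of GAUi total RNA differed more from each other than those of other total RNA groups, with a chi-square over its degrees of freedom between 8.01 and 22.3 in GAUi pairs, against 1.76 to 3.56 for pairs of the other lines. UAU high-fraction replicate C differed from A and B by 8.49 and 5.05, against 2.39 between A and B, and control low-fraction replicate B differed from A and C by 14.7 and 12.8, against 2.76 between A and C. UAU low-fraction replicate A differed from B and C by 6.54 and 8.72, against 3.32 between B and C, and pairs of isoswitch low-fraction libraries differed by 4.27 to 6.49. Isoswitch high-fraction replicate A differed from B and C by 5.93 and 3.96, against 2.45 between B and C. Counts of members called were recomputed without each library in turn, and the larger changes are given beside the results. Leaving UAU high-fraction replicate C out of medians and sums was chosen after seeing the data.

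The proteasome is the ATP-dependent protease that degrades ubiquitin-tagged proteins. Its 20S core is a barrel of alpha rings, which gate entry, and beta rings, which hold the proteolytic sites. The 19S regulatory particle caps the core: its base holds a ring of ATPases that unfold substrates and its lid removes ubiquitin. Immune cells and cells exposed to interferon exchange the catalytic beta subunits for immunoproteasome counterparts. In animal cells the genes are induced together by the transcription factor NFE2L1 through antioxidant response elements when proteasome activity falls.

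The members comprised 8 alpha subunits, 7 beta subunits of the constitutive core, 4 beta subunits of the immunoproteasome and thymoproteasome, 6 base ATPases, 3 other base subunits, 8 lid subunits and 3 chaperones that help assemble the base. PSMB11, the catalytic subunit of the thymus proteasome, had 0 counts in every library, which allows up to 3 counts, or 0.327 to 0.606 CPM in a library. PSMA8, a testis-specific alpha subunit, had 6 counts over all 36 libraries and at most 2 in any of them. These limits cover counting error only. The other 37 members were measured in each of the 36 libraries.

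The promoters of members that moved apart in the comparisons described further on are shown for orientation. RefSeq (GRCh38.p14) gave 41 windows for 34 of the members, each with 250 bases before and 50 after an annotated start. The antioxidant response element core was searched as TGACNNNGC on both strands. It opens with the TGAC that AP-1 sites also hold, so a match may be either. It was found in 10 of 41 member windows (24.4%) and in 13.3% of all 35116 windows. CCAAT, the core bound by NF-Y, was found on either strand in 18 of 41 member windows (43.9%) and in 34.6% of all windows. These matches are letters in a window and were not tested as binding sites. The 3 windows printed were chosen after the values were seen, among members whose window holds a match to the antioxidant response element core: PSMD12 and PSMA4 had the largest interaction terms among lid and core subunits, and PSMD9 had the lowest. The base ATPases PSMC1 and PSMC2, with terms of 1.22 and 1.12, lay above PSMA4 (1.11), and neither is among the members with such a match. Capitals mark each match to the antioxidant response element core. The window of PSMD12, a lid subunit, lies at chr17:67366528-67366827 on the minus strand, with its match at position -165 from the start. That of PSMA4, an alpha subunit, lies at chr15:78540536-78540835 on the plus strand, with its match at -126, and is 1 of 3 windows of that gene. That of PSMD9, an assembly chaperone, lies at chr12:121888540-121888839 on the plus strand, with matches at -149 and -102.
PSMD12: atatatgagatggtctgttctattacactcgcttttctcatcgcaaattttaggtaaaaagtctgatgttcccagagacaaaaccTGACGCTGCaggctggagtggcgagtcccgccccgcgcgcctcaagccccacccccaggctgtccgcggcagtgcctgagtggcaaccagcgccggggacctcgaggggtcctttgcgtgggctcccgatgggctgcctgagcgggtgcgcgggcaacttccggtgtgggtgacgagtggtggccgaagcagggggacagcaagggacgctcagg
PSMA4: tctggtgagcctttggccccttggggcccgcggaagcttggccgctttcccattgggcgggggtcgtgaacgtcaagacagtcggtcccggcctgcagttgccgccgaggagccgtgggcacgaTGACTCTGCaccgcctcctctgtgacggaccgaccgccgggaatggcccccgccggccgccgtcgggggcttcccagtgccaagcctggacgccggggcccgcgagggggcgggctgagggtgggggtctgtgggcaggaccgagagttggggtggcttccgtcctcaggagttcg
PSMD9: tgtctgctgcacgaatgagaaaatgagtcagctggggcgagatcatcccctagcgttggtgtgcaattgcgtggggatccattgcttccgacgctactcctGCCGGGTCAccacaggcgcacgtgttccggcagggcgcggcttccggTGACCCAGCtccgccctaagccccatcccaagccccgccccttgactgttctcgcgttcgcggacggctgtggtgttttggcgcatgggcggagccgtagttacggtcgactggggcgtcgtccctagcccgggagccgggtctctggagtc

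Where the mRNAs lay on the gradient was compared first, within each line. Nearly all proteasome mRNAs had higher CPM in the high than in the low fraction in all 4 lines, and the median was higher for the core than for the regulatory particle. Of 37 members tested, 36 were higher and 1 lower in the high than in the low fraction of UAU cells, 36 and 1 in GAUi cells, 35 and 0 in isoswitch cells, and 36 and 0 in control cells (edgeR quasi-likelihood test, Benjamini-Hochberg adjusted p under 0.05 over all genes tested). Of all genes tested, 67%, 64.8%, 70.5% and 66% were called in UAU, GAUi, isoswitch and control cells, and 33.4%, 32.1%, 35.2% and 32.8% were called higher. Genes called lower were 33.6%, 32.7%, 35.3% and 33.2% in the same order of lines. The median log2 fold change, high over low, of the members was 1.09 in UAU, 1.35 in GAUi, 1.44 in isoswitch and 1.34 in control cells, while that of all genes lay between -0.03 and -0.01. Core medians were 1.57, 1.70, 1.70 and 1.53 in UAU, GAUi, isoswitch and control cells. Regulatory particle medians were 0.73, 1.00, 1.30 and 1.20 in the same lines.

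**Figure D1:**
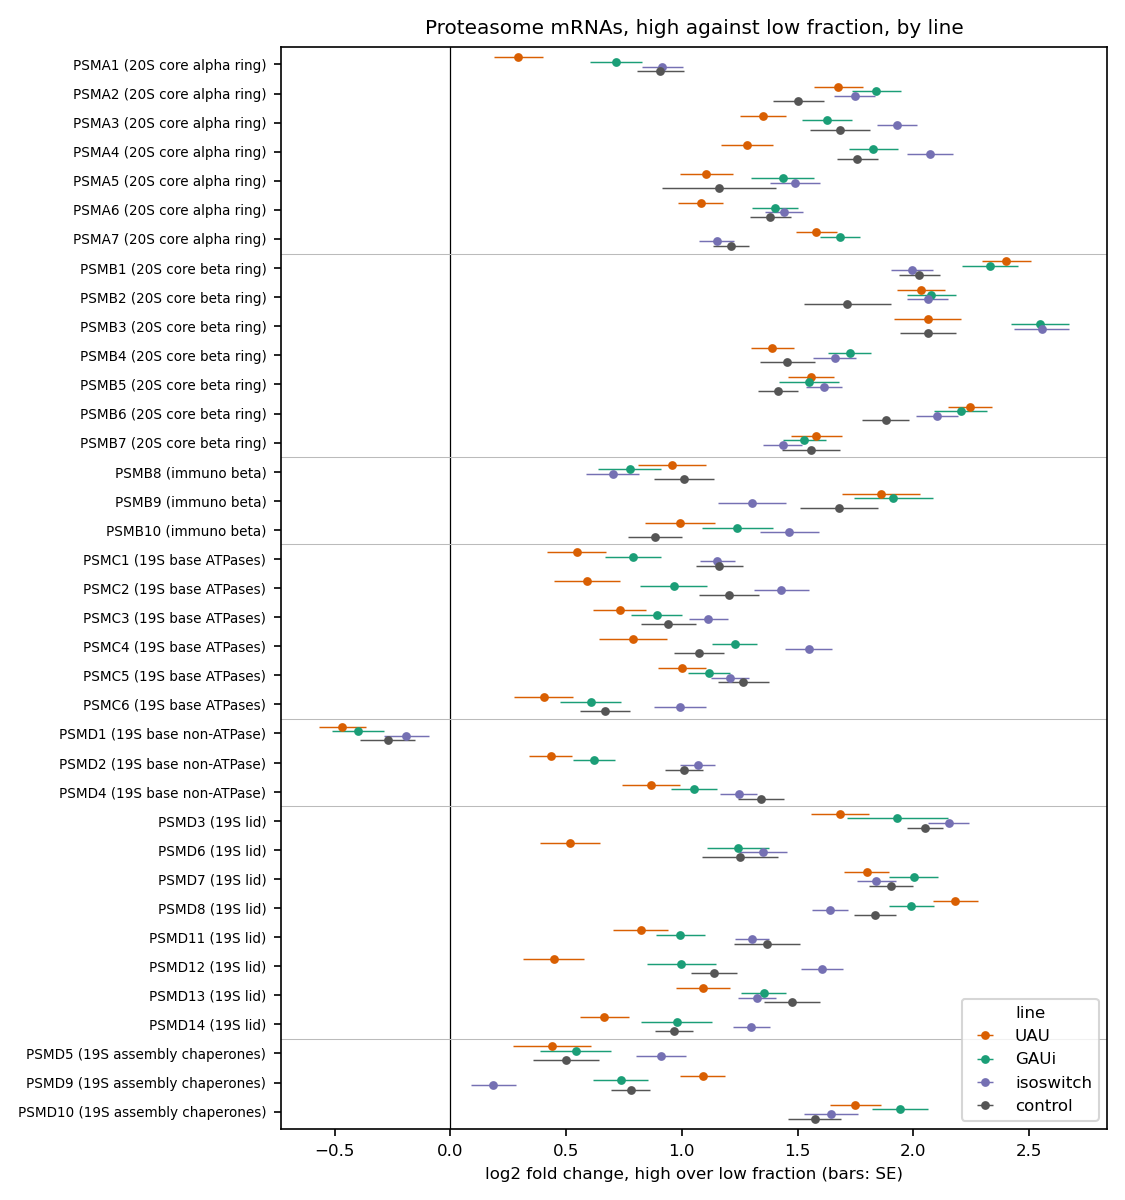
Log2 fold change of each proteasome mRNA, high over low fraction, in UAU, GAUi, isoswitch and control cells, with bars for the standard error (SE). Members run by role from the alpha ring at the top to the assembly chaperones, and PSMD1 is the member left of 0 in all 4 lines.

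The plot of high over low values by line shows how the roles differed. Beta subunits of the constitutive core had values from 1.39 (PSMB4, UAU) to 2.55 (PSMB3, isoswitch), with medians of 2.03 in UAU, 2.08 in GAUi, 1.99 in isoswitch and 1.72 in control cells. Base ATPases had medians of 0.66, 0.93, 1.18 and 1.12 in the same order of lines. PSMB1, a structural beta subunit, had 542, 545 and 542 CPM in the high fraction of control cells and 134, 136 and 112 CPM in their low fraction (log2 fold change 2.03, SE 0.09, adjusted p = 5.45e-11, edgeR). PSMD3, a lid subunit, had 479, 509 and 513 CPM in the high and 113, 116 and 117 CPM in the low fraction of control cells (log2 fold change 2.05, SE 0.08, adjusted p = 1.46e-11, edgeR). The groups stood well apart for both, with every high-fraction library at several times every low-fraction one. In control cells PSMD8 (1.83), PSMD7 (1.90), both lid subunits, PSMA4 (1.76) and PSMB6 (1.88) followed by adjusted p. In UAU cells the 6 smallest adjusted p belonged to PSMB6 (log2 fold change 2.25), PSMB1 (2.40), PSMD8 (2.18), PSMB2 (2.03), PSMD7 (1.80) and PSMA7 (1.58). In GAUi cells they belonged to PSMD8 (1.99), PSMB3 (2.55), PSMB2 (2.08), PSMA7 (1.68), PSMB6 (2.21) and PSMB1 (2.33). In isoswitch cells they belonged to PSMD3 (2.15), PSMB2 (2.06), PSMB6 (2.10), PSMA3 (1.93), PSMB1 (1.99) and PSMD7 (1.84).

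In UAU cells PSMB6 had 391, 377 and 426 CPM in the high and 94.2, 78.8 and 85.5 CPM in the low fraction. PSMB2, a structural beta subunit, had 232, 241 and 291 CPM in the high and 66.8, 58.4 and 66.7 CPM in the low fraction of the same cells, and PSMD8 had 558, 546 and 622 CPM in the high and 121, 146 and 124 CPM in the low fraction. No low-fraction library came near a high-fraction one for these 3. In GAUi cells PSMB3, another structural beta subunit, had 118, 115 and 111 CPM in the high and 17.2, 20.7 and 20.6 CPM in the low fraction. PSMA7 had 2581, 2653 and 2776 CPM in the high and 829, 848 and 812 CPM in the low fraction of GAUi cells. Both stood apart between fractions. In isoswitch cells PSMD3 had 603, 501 and 479.7 CPM in the high and 121, 118 and 107 CPM in the low fraction, and PSMA3, an alpha subunit, had 215, 204 and 190.0 CPM in the high and 47.8, 55.3 and 52.5 CPM in the low fraction. The fractions did not overlap for either.

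Among the proteases of the constitutive core, PSMB5 was higher in the high fraction by 1.56 in UAU, 1.55 in GAUi, 1.61 in isoswitch and 1.42 in control cells, on the log2 scale. PSMB7 had 1.58, 1.53, 1.44 and 1.56 in the same order of lines. Of their immunoproteasome counterparts, PSMB8 had 0.96, 0.78, 0.70 and 1.01, PSMB9 had 1.86, 1.91, 1.30 and 1.68, and PSMB10 had 0.99, 1.24, 1.47 and 0.89. All 5 were called higher in each line.

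A few of the calls in UAU cells rested on 1 library. Without UAU high-fraction replicate C, 32 members were called higher and 1 lower (62.9% of all genes called). The medians were then 1.01 over the members, 1.45 for the core and 0.55 for the regulatory particle. Without UAU low-fraction replicate A, 36 were called higher and 1 lower, as with all libraries, where 67% of all genes were called. The share of all genes in that leave-out is not given here. Without UAU high-fraction replicate C, the UAU values of PSMA1, PSMC6, PSMD12 and PSMD5 were 0.19, 0.23, 0.23 and 0.16 and none of the 4 was called (adjusted p = 0.109, 0.0931, 0.0821 and 0.38, edgeR), against 0.29, 0.40, 0.45 and 0.44 with it. PSMC1 and PSMC4 were then 0.31 and 0.51, against 0.55 and 0.79, and stayed called. PSMA1 was also not called without UAU low-fraction replicate B (0.23), nor PSMD5 without UAU low-fraction replicate B (0.36) or C (0.38).

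PSMD1, the large scaffold subunit of the base, had values below 0 in every line. It had 37.1, 38.97 and 40.99 CPM in the high and 59.1, 56.6 and 50.1 CPM in the low fraction of UAU cells (log2 fold change -0.47, SE 0.10, adjusted p = 0.000305, edgeR). In GAUi cells it had 44.4, 38.5 and 50.1 CPM in the high and 58.5, 57.95 and 58.3 CPM in the low fraction (-0.40, SE 0.11, adjusted p = 0.00478, edgeR). The fractions did not overlap in either line. In isoswitch cells (-0.19, adjusted p = 0.0817, edgeR) and control cells (-0.27, adjusted p = 0.059, edgeR) the fractions overlapped and PSMD1 was not called. PSMD1 had higher CPM in total RNA than in either fraction, with 161, 168 and 162 CPM in UAU and 175, 166 and 187 CPM in control cells. Other members shared this, such as PSMD2 in control cells. It had 809, 767 and 808 CPM in total RNA, 651, 593 and 622 in the high and 278, 318 and 289 in the low fraction. PSMD1 overlaps other annotated genes, among them HTR2B, and the strand setting of the counting is not given in the sources used here.

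PSMD9, a chaperone that holds base ATPases during assembly, was higher in the high fraction in 3 lines. It had 268, 359.8 and 302 CPM in the high and 304, 233 and 258 CPM in the low fraction of isoswitch cells, where the fractions overlapped and the difference was not called (0.18, SE 0.10, adjusted p = 0.0927, edgeR). It had 482, 450.5 and 469 CPM in the high and 191, 243 and 242 CPM in the low fraction of UAU cells (1.09, SE 0.10, adjusted p = 3.13e-10, edgeR), with no overlap. The values were 0.74 in GAUi and 0.78 in control cells, both called. Across the 12 group means, PSMD1 and PSMD9 also had the lowest correlation with the mean of the other members, at r = 0.22 and 0.35, while the next lowest was PSMC2 at 0.82 (Pearson, n = 12 groups that share libraries and the difference between fractions).

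Whether the tRNA changes altered the abundance of the mRNAs was asked in total RNA, where few members differed from control. UAU total RNA had 0 of 37 members called against control (0.914% of all genes tested were called, and 6 members had an unadjusted p under 0.05, edgeR), against 1 by DESeq2. Isoswitch total RNA likewise had 0 of 37 (4.05% of all genes, 1.29% higher and 2.76% lower, 5 members at an unadjusted p under 0.05, edgeR), against 1 by DESeq2. With only the 6 libraries of each comparison in the fit, 5 members were lower in UAU (7.62% of all genes were called in that fit), and 2 were higher and 6 lower in isoswitch (15.8% of all genes). GAUi total RNA had 3 of 37 called, 2 higher and 1 lower (10.1% of all genes, 4.38% higher and 5.72% lower), a share close to the background. The 3 constitutive proteases summed to 795 ± 20.1 CPM in UAU, 942 ± 125 in GAUi, 857 ± 27.2 in isoswitch and 886 ± 29.1 in control total RNA (SD, n = 3). The 3 immunoproteasome subunits summed to 61.4 ± 4.32 CPM in UAU, 67.1 ± 1.93 in GAUi, 73.6 ± 5.53 in isoswitch and 70.6 ± 1.91 in control total RNA. In bulk RNA, fewer cells of a type and less RNA per cell cannot be told apart.

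PSMD6, a lid subunit, had 73.5, 81.1 and 67.99 CPM in GAUi and 59.05, 60.4 and 55.7 CPM in control total RNA (log2 change 0.34, SE 0.10, adjusted p = 0.0293, edgeR). PSMC4, a base ATPase, had 193, 216 and 194 CPM in GAUi and 153, 164 and 168 CPM in control total RNA (0.31, SE 0.09, adjusted p = 0.0257, edgeR). PSMD13, a lid subunit, had 194, 180.1 and 215 CPM in GAUi and 236, 233 and 241 CPM in control total RNA (-0.28, SE 0.08, adjusted p = 0.0247, edgeR). GAUi libraries lay above control for the first 2 genes and below it for PSMD13, without overlap. None of the 3 calls held in every leave-out. The count was 0 without control replicate A or C and 1 without B, and it was 10, 5 and 6 without GAUi replicate A, B and C. The calls over all genes moved too, from 1248 of 12357 with all libraries. They were 622 of 12517, 531 of 12523 and 724 of 12501 without control replicate A, B and C. Leaving out GAUi replicate A, B and C gave 2134 of 12507, 1468 of 12478 and 1411 of 12526. The member count was 0 with only the 6 compared libraries in the fit (2.74% of all genes). The interaction in total RNA, the effect of UAU overexpression under GAU interference (isoswitch minus GAUi) minus its effect under eGFP interference (UAU minus control), had 0 of 37 members called (0.0243% of all genes, 0.0162% higher and 0.00809% lower, 5 members at an unadjusted p under 0.05, edgeR, and 0 by DESeq2).

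In the low fraction the members also differed little. There were 0 of 37 called in UAU (0.691% of all genes, 6 at an unadjusted p under 0.05, edgeR, and 0 by DESeq2) and 0 of 37 in isoswitch cells (2.58% of all genes, 0.964% higher and 1.62% lower, 7 at an unadjusted p under 0.05, edgeR, and 0 by DESeq2), each against control. GAUi had 2 of 37 called, both lower (3.4% of all genes, 1.27% higher and 2.13% lower). PSMA2, an alpha subunit, had 44.1, 39.9 and 46.3 CPM in GAUi and 70.7, 49.8 and 59.2 CPM in control cells (-0.50, SE 0.13, adjusted p = 0.0469, edgeR). PSMD10, the base chaperone also known as gankyrin, had 14.9, 14.8 and 14.7 CPM in GAUi and 21.3, 17.1 and 23.2 CPM in control cells (-0.50, SE 0.14, adjusted p = 0.0487, edgeR). Each GAUi library lay below each control library for both, by a narrow margin. Leaving out any library other than control replicate B brought the GAUi count to 0, and leaving out control replicate B gave 5 members lower in GAUi, 1 lower in UAU and 3 lower in isoswitch cells. That fit called 760, 209 and 675 of 12653 genes in GAUi, UAU and isoswitch cells.

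In the high fraction, regulatory particle mRNAs fell in UAU cells against control. Of 17 regulatory particle mRNAs, 16 fell in UAU cells, with a median log2 fold change of -0.51 for the 17. Of 14 constitutive core mRNAs, 3 fell (PSMA1, PSMA3 and PSMA4), with a median of -0.18. Over all members, 1 rose and 20 fell of 37 tested; of all genes tested, 28.7% were called, 13.1% higher and 15.5% lower. The median of the 37 members was -0.35, and that of all genes was -0.00. Without UAU replicate C, which stood apart, 1 rose and 26 fell, against 31.4% of all genes called, and the medians were -0.49 over the members, -0.67 for the regulatory particle and -0.27 for the core. When UAU replicate A or B was left out instead, PSMC3, PSMD7, PSMD11 and PSMD13 were among the calls lost. Medians were not recomputed without A or B. With all libraries the immunoproteasome subunit PSMB10 also fell, and PSMD9 was the member that rose. PSMD11 was called although its UAU and control libraries overlapped. The calls were made on these same libraries, so a lack of overlap in other called members is no separate support. The share of all genes without overlap is not given here. The 5 leukocyte markers, mostly CD68, summed to 8.92 to 10.5 CPM in UAU and 13.02 to 16.7 CPM in control libraries of this fraction, with CD3E at 0, and their part in the result was not tested.

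**Figure D2:**
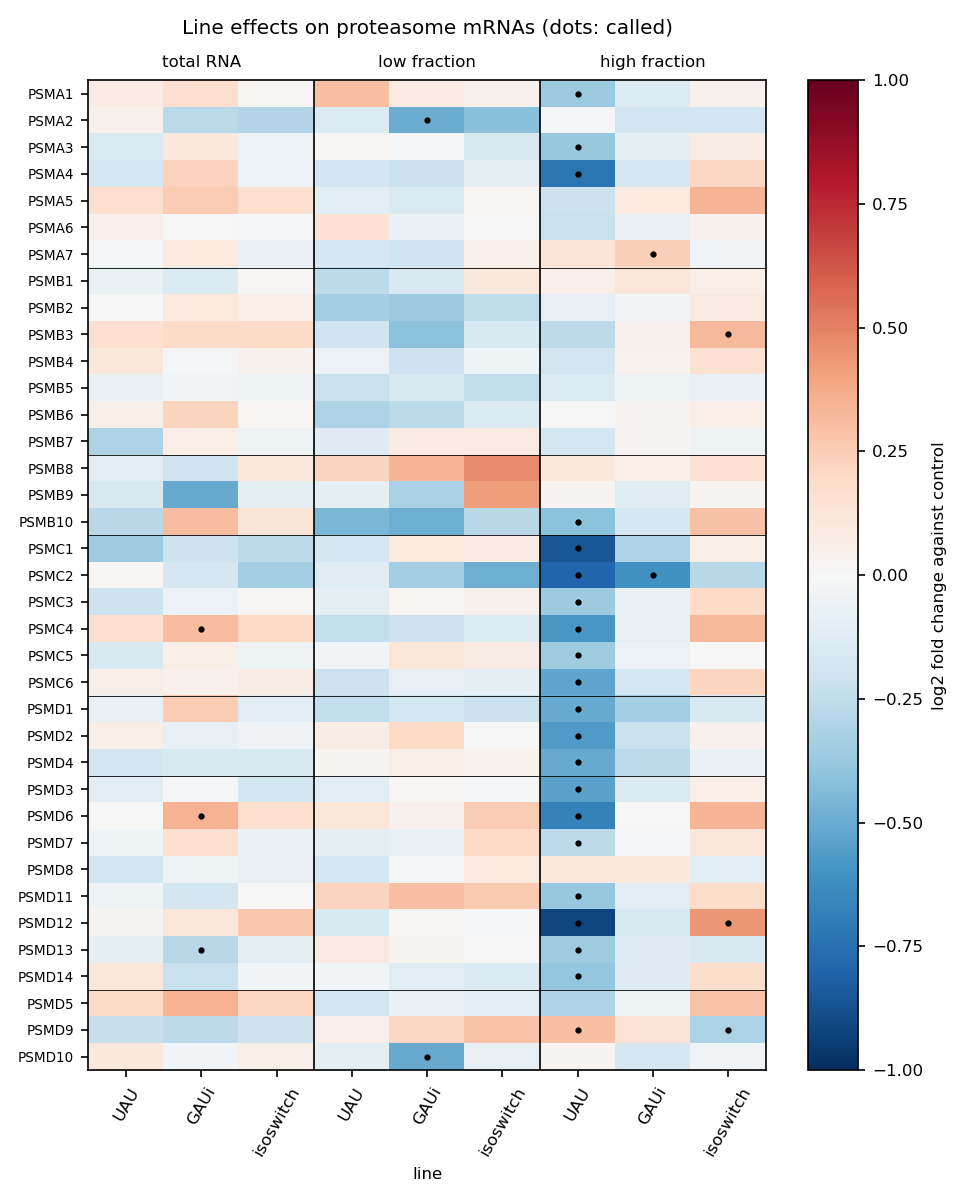
Log2 fold change against control of each member (lines down the page, by role) in UAU, GAUi and isoswitch cells, for total RNA, the low and the high fraction, with blue lower and red higher than control. Dots mark members called at an adjusted p under 0.05, and 21 of the dots lie in the UAU column of the high fraction.

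All 6 base ATPases fell in the UAU high fraction. PSMC1, the ATPase whose tail helps open the core gate, had 192, 199 and 305 CPM in UAU and 435, 407 and 434 CPM in control cells (-0.85, SE 0.11, adjusted p = 7.4e-06, edgeR). PSMC2 had 33.2, 39.8 and 51.3 CPM in UAU and 76.7, 73.2 and 68.1 CPM in control cells (-0.79, SE 0.13, adjusted p = 0.000102, edgeR). No UAU library reached the lowest control library for either gene, and replicate C was the UAU library nearest to control. PSMC3, PSMC4, PSMC5 and PSMC6 fell by 0.36, 0.58, 0.35 and 0.53 on the log2 scale. PSMC1 (chr14:90256553-90275429, GRCh38.p14) has 13 named pseudogenes in the annotation and overlaps NRDE2, and PSMC2 has 2 and overlaps PMPCB and SLC26A5, so reads that the counting could split are uncertain for them.

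The 3 other base subunits fell as well. PSMD2, a scaffold that docks ubiquitin shuttle proteins, had 380.3, 392 and 469.9 CPM in UAU and 651, 593 and 622 CPM in control cells (-0.57, SE 0.08, adjusted p = 1.93e-05, edgeR). Each UAU library lay below each control library. PSMD1 fell by 0.50 and PSMD4, a ubiquitin receptor, by 0.51 on the log2 scale. PSMD1 was not called without control replicate A (-0.32, adjusted p = 0.0576, edgeR).

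Of 8 lid subunits, 7 fell. PSMD12 (chr17:67337916-67366577, GRCh38.p14) had 39.7, 49.1 and 65.2 CPM in UAU and 101, 103 and 90.4 CPM in control cells (-0.91, SE 0.13, adjusted p = 1.03e-05, edgeR), the furthest below control of all members. PSMD6 had 28.7, 25.4 and 30.8 CPM in UAU and 52.9, 49.6 and 34.5 CPM in control cells (-0.68, SE 0.13, adjusted p = 0.000302, edgeR). The UAU libraries lay below the control libraries for both, and control replicate C was the control library nearest to UAU. PSMD3 fell by 0.54, PSMD14, the deubiquitinase of the lid, by 0.39, PSMD11 by 0.38, PSMD13 by 0.36 and PSMD7 by 0.26 on the log2 scale. PSMD8, the last subunit to join the lid, was at 558, 546 and 622 CPM in UAU and 540.3, 500.1 and 585 CPM in control cells (0.11, adjusted p = 0.351, edgeR), with overlapping groups. PSMD6 overlaps annotated antisense genes, whose reads cannot be told apart from its own where counting ignores strand.

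**Figure D3:**
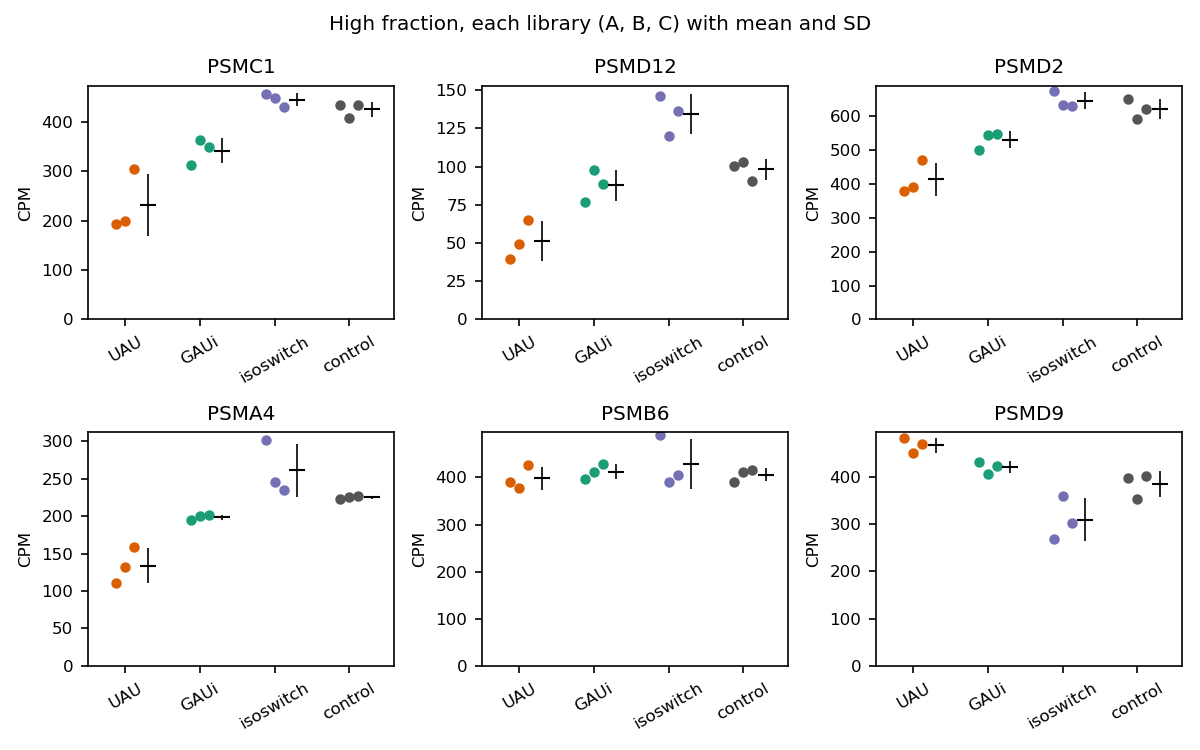
CPM of 6 members in the high fraction of UAU, GAUi, isoswitch and control cells, with a point for each of 3 libraries and a bar for the mean and SD. UAU libraries are lowest for PSMC1, PSMD12, PSMD2 and PSMA4, overlap control for PSMB6 and are highest for PSMD9.

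In the core, 3 alpha subunits fell. PSMA4 (chr15:78540405-78552417, GRCh38.p14) had 111, 132 and 159 CPM in UAU and 223, 225 and 227 CPM in control cells (-0.73, SE 0.10, adjusted p = 1.37e-05, edgeR), with no overlap. PSMA3 and PSMA1 fell by 0.38 and 0.37 on the log2 scale. None of the beta subunits was called with all libraries in the fit. PSMB5, the chymotrypsin-like protease, had 357, 387 and 463 CPM in UAU and 429, 454 and 467 CPM in control cells (-0.14, adjusted p = 0.238, edgeR). PSMB6, the caspase-like protease, had 391, 377 and 426 CPM in UAU and 390.4, 411 and 416 CPM in control cells (-0.01, adjusted p = 0.963, edgeR). PSMB7, the trypsin-like protease, had 451, 466 and 605 CPM in UAU and 571, 559 and 605 CPM in control cells (-0.17, adjusted p = 0.175, edgeR). The UAU and control libraries overlapped for all 3 proteases, but for PSMB5 and PSMB7 only through UAU replicate C. Without that library 4 of 7 beta subunits were called lower, with a median of -0.25 (31.4% of all genes called). The plot of 6 members by library shows PSMB6 beside members that fell.

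Of the immunoproteasome subunits, PSMB10 fell. It had 20.9, 19.99 and 26.1 CPM in UAU and 29.02, 29.5 and 32.9 CPM in control cells (-0.41, SE 0.14, adjusted p = 0.0241, edgeR). PSMB8 had 38.4, 35.9 and 40.9 CPM in UAU and 36.7, 38.1 and 33.8 CPM in control cells (0.11, adjusted p = 0.528, edgeR). PSMB9 had 30.7, 23.6 and 23.3 CPM in UAU and 24.4, 27.6 and 25.6 CPM in control cells (0.03, adjusted p = 0.892, edgeR). Only PSMB10 had no overlap, and it was not called without UAU replicate A or B or control replicate C (adjusted p = 0.11, 0.0996 and 0.0807, edgeR). Across all libraries the 37 members ranged from 5.39 CPM (PSMB9, in a GAUi low-fraction library) to 2776 CPM (PSMA7, in a GAUi high-fraction library).

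Among the assembly chaperones, PSMD9 rose, with 482, 450.5 and 469 CPM in UAU and 398, 353 and 402 CPM in control cells (0.30, SE 0.09, adjusted p = 0.0131, edgeR). The groups did not overlap, but PSMD9 was not called without control replicate B (adjusted p = 0.0858, edgeR). PSMD5 (-0.30, adjusted p = 0.109, edgeR) and PSMD10 (0.03, adjusted p = 0.872, edgeR) were not called.

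Of the 21 calls, 12 held when any 1 of the 6 UAU and control libraries was left out: PSMA3, PSMA4, PSMC1, PSMC2, PSMC4, PSMC6, PSMD2, PSMD3, PSMD4, PSMD6, PSMD12 and PSMD14. Without UAU replicate A, PSMA1, PSMC3, PSMD7, PSMD11 and PSMD13 were also lost, PSMD11 was -0.24 and PSMC4 was -0.38. Without UAU replicate B, PSMC3, PSMC5, PSMD7, PSMD11 and PSMD13 were lost. Without UAU replicate C, 27 members were called, 8 of them in the core, and PSMC3, PSMC4, PSMD11 and PSMD13 were -0.55, -0.88, -0.59 and -0.55. PSMC1, PSMC2, PSMD2, PSMD12, PSMD6 and PSMA4 were then -1.10, -0.99, -0.67, -1.14, -0.74 and -0.87, all called. Without control replicate C, 5 core members were called, and without control replicate A or B PSMD7 and PSMD11 were lost.

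In GAUi cells the high fraction had 2 of 37 members called, 1 higher and 1 lower (10.1% of all genes, 4.66% higher and 5.48% lower). PSMC2 had 52.4, 51.3 and 39.00 CPM in GAUi and 76.7, 73.2 and 68.1 CPM in control cells (-0.61, SE 0.13, adjusted p = 0.00394, edgeR), with no overlap. PSMA7, an alpha subunit, had 2581, 2653 and 2776 CPM in GAUi and 2329.7, 2222 and 2234 CPM in control cells (0.24, SE 0.07, adjusted p = 0.0264, edgeR). GAUi libraries lay above control for PSMA7, whose call was lost whichever of the 6 libraries was left out (adjusted p of 0.0577 to 0.109, edgeR). The count was 5 with only the 6 compared libraries in the fit (14.5% of all genes). Of the constitutive proteases, PSMB5 had 412, 436 and 452 CPM in GAUi cells (log2 fold change against control -0.05). PSMB6 had 396, 412 and 427 CPM (0.02) and PSMB7 566, 596 and 604 CPM (0.03). Of the immunoproteasome subunits, PSMB8 had 39.5, 42.04 and 32.1 CPM (0.07), PSMB9 23.6, 21.3 and 26.5 CPM (-0.12) and PSMB10 21.3, 28.7 and 30.97 CPM (-0.17). None of these 6 was called against control.

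In isoswitch cells the high fraction had 3 of 37 members called, 2 higher and 1 lower (11% of all genes, 3.67% higher and 7.36% lower). PSMD12 had 146, 120.1 and 136 CPM in isoswitch and 101, 103 and 90.4 CPM in control cells (0.44, SE 0.12, adjusted p = 0.0159, edgeR). PSMB3, a structural beta subunit, had 161, 129 and 131 CPM in isoswitch and 104, 126 and 104 CPM in control cells (0.33, SE 0.10, adjusted p = 0.0362, edgeR). Both rose without overlap. PSMD9 had 268, 359.8 and 302 CPM in isoswitch and 398, 353 and 402 CPM in control cells (-0.32, SE 0.09, adjusted p = 0.0208, edgeR), with isoswitch replicate B inside the control range. None of the 3 was called without control replicate C or isoswitch replicate A, where PSMB3 was 0.22. PSMB3 and PSMD9 were also lost without control replicate A, and PSMD9 without isoswitch replicate C. The count was 6 with only the 6 compared libraries in the fit (12.3% of all genes). Of the constitutive proteases, PSMB5 had 457, 421 and 421 CPM in isoswitch cells (log2 fold change against control -0.06). PSMB6 had 489, 390.4 and 404 CPM (0.07) and PSMB7 541, 600.2 and 547 CPM (-0.05). Of the immunoproteasome subunits, PSMB8 had 37.3, 45.4 and 38.8 CPM (0.15), PSMB9 27.4, 27.6 and 24.5 CPM (0.03) and PSMB10 35.95, 42.3 and 33.6 CPM (0.29). None of these 6 was called against control. The UAU, GAUi and isoswitch comparisons share the same 3 control libraries.

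Whether UAU overexpression acted alike with and without GAU interference was tested as an interaction in the high fraction. The term was called for 27 of 37 members, 24 higher and 3 lower, against 35.7% of all genes tested, 18.1% higher and 17.6% lower. A higher value means that the difference between isoswitch and GAUi cells lay above that between UAU and control cells. The median term was 0.54 over the members and -0.01 over all genes. Of 17 regulatory particle mRNAs, 15 were called higher and 1 lower (median 0.70), and of 14 core mRNAs, 7 were called higher and 1 lower (median 0.25). Without UAU replicate C, 26 members were called higher and 2 lower (38.7% of all genes called). The medians were then 0.63 over the members, 0.92 for the regulatory particle and 0.34 for the core.

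**Figure D4:**
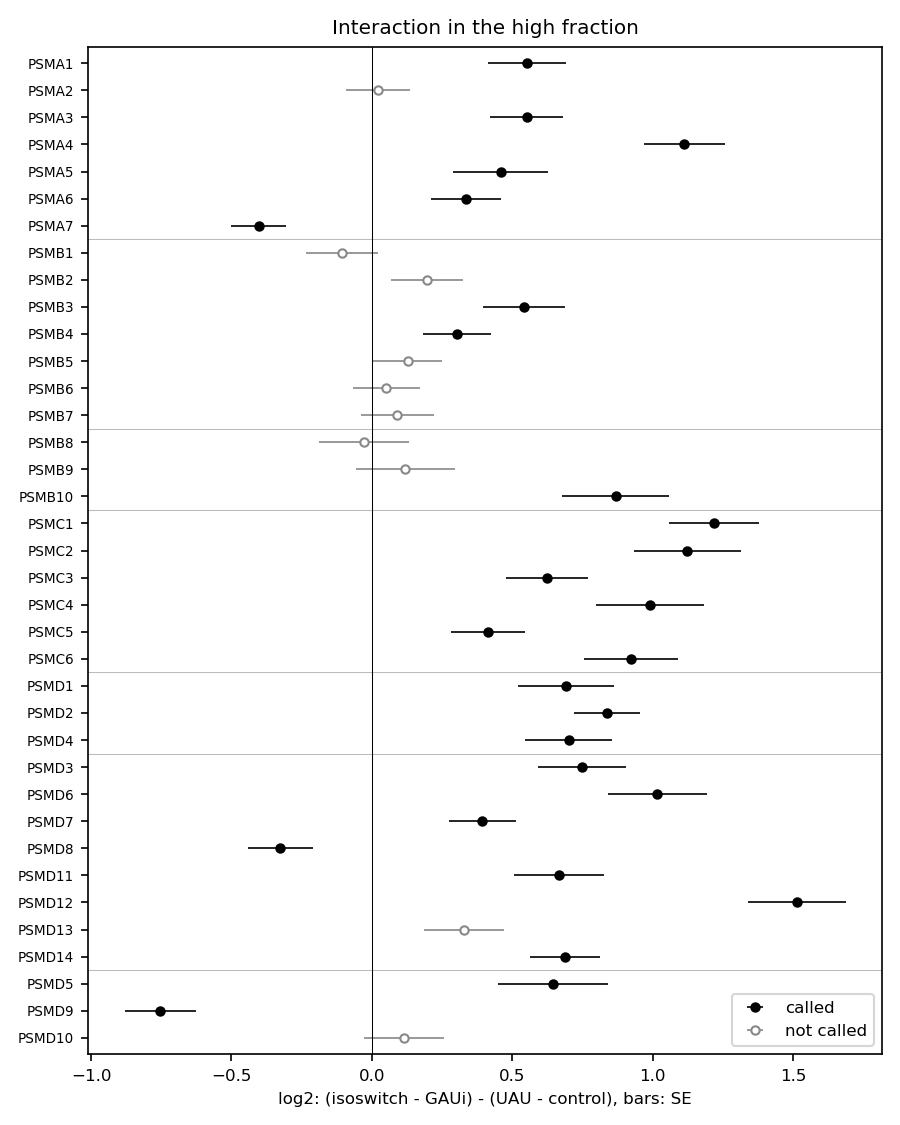
Interaction term in the high fraction, (isoswitch minus GAUi) minus (UAU minus control), on the log2 scale for each of 37 members by role, with bars for the SE and filled points for members called at an adjusted p under 0.05. Terms run from -0.75 (PSMD9) to 1.51 (PSMD12), and all 6 base ATPases lie right of 0.

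The plot of interaction terms has PSMD12 at the far right (1.51, SE 0.17, adjusted p = 4.63e-07, edgeR). Its high-fraction level was 134 ± 13.1 CPM in isoswitch, 87.7 ± 10.3 in GAUi, 51.3 ± 12.9 in UAU and 98.1 ± 6.78 in control cells (mean ± SD, n = 3 libraries each). PSMD12 was thus highest in isoswitch and lowest in UAU libraries, with no overlap between those 2 lines. PSMC1 had 457, 448 and 431 CPM in isoswitch and 313, 364 and 349 CPM in GAUi cells, beside the UAU and control values given already (1.22, SE 0.16, adjusted p = 2.26e-06, edgeR). PSMD2 had 674, 634 and 631 CPM in isoswitch and 502, 543 and 548 CPM in GAUi cells (0.84, SE 0.12, adjusted p = 4.78e-06, edgeR). PSMA4 had 302, 245 and 235 CPM in isoswitch and 194, 199.8 and 201 CPM in GAUi cells (1.11, SE 0.14, adjusted p = 1.83e-06, edgeR). All 3 were higher in each isoswitch than in each GAUi library, while the UAU libraries lay below control. PSMC2 had a term of 1.12 (adjusted p = 4.84e-05, edgeR), with 71.6, 52.8 and 57.1 CPM in isoswitch and 52.4, 51.3 and 39.00 CPM in GAUi cells.

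PSMD9 (-0.75, SE 0.13, adjusted p = 4.82e-05, edgeR), PSMA7 (-0.40, adjusted p = 0.00214, edgeR) and PSMD8 (-0.33, adjusted p = 0.0284, edgeR) were called lower. PSMD9 had 268, 359.8 and 302 CPM in isoswitch and 432, 407 and 423 CPM in GAUi cells, without overlap. The term was not called for PSMB5 (0.13), PSMB6 (0.05) and PSMB7 (0.09), nor for PSMB8 (-0.03) and PSMB9 (0.12), and it was 0.87 for PSMB10 (adjusted p = 0.00078, edgeR). Leaving out 1 of the 12 libraries at a time left 23 to 28 members called. Of all genes, 35.7% were called with all libraries and 38.7% without UAU replicate C. Shares of all genes for the other leave-outs are not given here. The calls of PSMA5, PSMA6, PSMB4, PSMC5 and PSMD8 were each lost without at least 1 library, and the other 22 held throughout. The core count was 8; it was 5 without either UAU replicate A or B, control replicate A or B, GAUi replicate C or isoswitch replicate A.

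The comparison of isoswitch with GAUi cells in the high fraction was added after the values were seen. It called 10 of 37 members, 8 higher and 2 lower (15.8% of all genes, 6.58% higher and 9.26% lower). The 8 were PSMD12 (0.60), PSMB10 (0.46), PSMC4 (0.41), PSMC6 (0.39), PSMA4 (0.38), PSMC1 (0.37), PSMD14 (0.30) and PSMD2 (0.27), and the 2 were PSMD9 (-0.45) and PSMA7 (-0.27), on the log2 scale. PSMB10 had 35.95, 42.3 and 33.6 CPM in isoswitch and 21.3, 28.7 and 30.97 CPM in GAUi cells, and PSMD14 had 164, 166 and 171 CPM in isoswitch and 132, 133 and 138 CPM in GAUi cells. PSMA7 had 2233, 2295 and 2176 CPM in isoswitch and 2581, 2653 and 2776 CPM in GAUi cells, and none of these groups overlapped. Only PSMD12 and PSMD9 held when any 1 library was left out. The count was 3 without GAUi replicate A (994 of 12127 genes) and 5 without GAUi replicate C (1158 of 12153). It was 5 without isoswitch replicate A (772 of 12132) and 6 without isoswitch replicate C (1308 of 12137).

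The balance between the particle and the core was described by the ratio of their summed CPM, 17 regulatory particle over 15 constitutive core mRNAs. In the high fraction it was 0.578, 0.575 and 0.706 in UAU, 0.678, 0.716 and 0.692 in GAUi, 0.820, 0.832 and 0.840 in isoswitch and 0.816, 0.781 and 0.828 in control libraries. UAU and GAUi libraries lay below every isoswitch and control library, and UAU replicate C lay within the GAUi range. PSMA7, the member with the highest CPM, took a large part of the core sum. Without it the mean ratio was 1.08 ± 0.06 in UAU, 1.20 ± 0.03 in GAUi, 1.31 ± 0.04 in isoswitch and 1.30 ± 0.06 in control cells (SD, n = 3). In total RNA the ratio was 1.06 ± 0.01 in UAU, 1.00 ± 0.06 in GAUi, 1.07 ± 0.01 in isoswitch and 1.09 ± 0.02 in control cells. In the low fraction it was 0.97 ± 0.09, 1.05 ± 0.03, 0.93 ± 0.03 and 0.90 ± 0.06 in the same order of lines. The regulatory particle summed to 3593 ± 642 CPM in the UAU and 4854 ± 90.9 CPM in the control high fraction, and the core to 5775 ± 341 and 6007 ± 71.5 CPM in UAU and control cells (SD, n = 3). Over UAU replicates A and B alone, the means were 3225 CPM for the particle and 5596 CPM for the core, with a ratio of 0.576, or 1.04 without PSMA7.

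**Figure D5:**
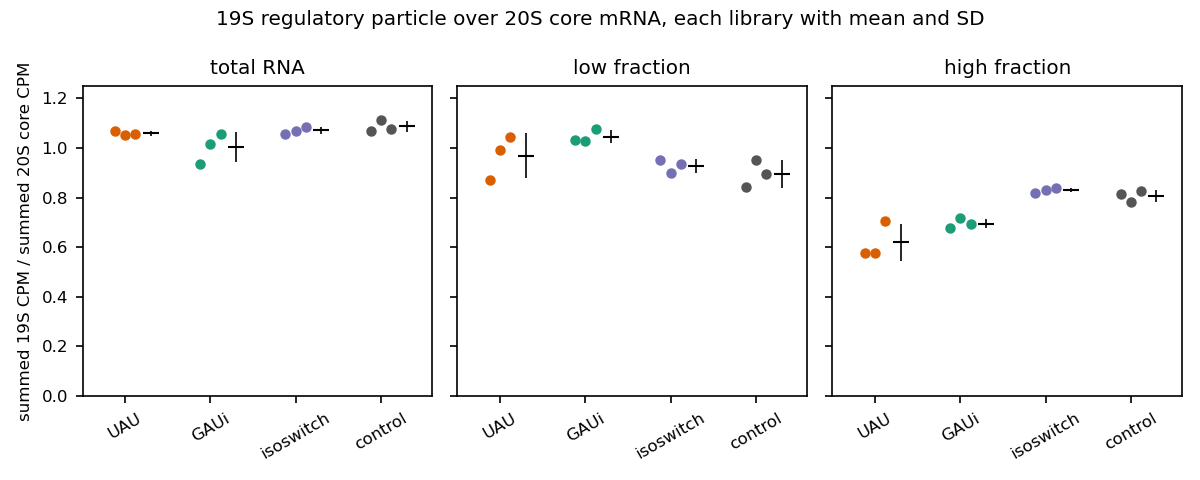
Summed CPM of 17 regulatory particle mRNAs over summed CPM of 15 constitutive core mRNAs in each library of UAU, GAUi, isoswitch and control cells, by fraction, with bars for the mean and SD of 3 libraries. In the high fraction all UAU libraries, from 0.575 to 0.706, lie below all control libraries, from 0.781 to 0.828.

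No test was made of the ratio. In the plot of the ratio by fraction, UAU replicate C is the UAU library nearest to control in the high fraction.

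Whether the position of the mRNAs on the gradient differed between lines was tested as the high-to-low ratio, the log2 fold change of high over low in a line minus that in control. In UAU cells it fell for 6 of 37 members and rose for 0 (6.53% of all genes called, 3.19% higher and 3.34% lower). They were PSMD2 (-0.63, SE 0.12, adjusted p = 0.00192), PSMA1 (-0.67, adjusted p = 0.00997), PSMD12 (-0.75, adjusted p = 0.0112), PSMC1 (-0.67, adjusted p = 0.0168), PSMD6 (-0.79, adjusted p = 0.0226) and PSMA4 (-0.53, adjusted p = 0.0389), all by edgeR. The median of 17 regulatory particle mRNAs was -0.42 and that of 14 core mRNAs -0.04, beside -0.02 over all genes. This comparison shares its high-fraction libraries with those described already.

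PSMA1 had 98.8, 114 and 132 CPM in the high and 106, 88.4 and 94.8 CPM in the low fraction of UAU cells. In control cells it had 149, 159 and 144 CPM in the high and 84.1, 64.6 and 82.01 CPM in the low fraction. PSMD2 had 299, 317 and 328 CPM in the low fraction of UAU cells and 278, 318 and 289 CPM in that of control cells, with overlap. For PSMD12 these values were 36.9, 38.99 and 40.3 CPM in UAU and 42.7, 37.8 and 47.2 CPM in control cells, and for PSMC1 161, 167 and 162 CPM in UAU and 178, 212 and 154 CPM in control cells, both overlapping. For PSMD6 they were 23.4, 20.5 and 17.3 CPM in UAU and 21.3, 14.03 and 19.9 CPM in control cells, and for PSMA4 60.7, 56.96 and 51.6 CPM in UAU and 65.1, 69.1 and 56.3 CPM in control cells, also overlapping. PSMA1 was the gene of the 6 whose low fraction was higher in each UAU than in each control library. The count of 6 rested on single libraries, and the calls over all genes moved with it from 833 of 12749. It was 15 without UAU high-fraction replicate C (9.22% of all genes), 2 without A (367 of 12890) and 3 without B (423 of 12939). Leaving out control high-fraction replicate A gave 3 (412 of 12889). The count was 9, of which 1 was higher, without control low-fraction replicate B. It was 2 with only the 12 libraries of UAU and control cells in the fit (1.83% of all genes). Without UAU low-fraction replicate A it was 6, with 1 higher, and PSMA4 (-0.47, adjusted p = 0.0938, edgeR) and PSMD6 (-0.68, adjusted p = 0.0648, edgeR) were lost. Calls over all genes without control low-fraction replicate B or UAU low-fraction replicate A are not given here. The counts of 9 and 6 therefore cannot be set against a background. PSMD2 and PSMA1 held in every leave-out. With total RNA as the denominator instead, 8 members were called (7.32% of all genes), but neither PSMA1 (-0.43, adjusted p = 0.0571, edgeR) nor PSMC1 (-0.47, adjusted p = 0.0976, edgeR). GAUi and isoswitch cells had 0 of 37 members called each (0.196% and 0.00784% of all genes; 8 and 7 members at an unadjusted p under 0.05, edgeR; 2 and 1 by DESeq2). Without control low-fraction replicate B, 1 member was called in GAUi and 2 in isoswitch cells (190 and 469 of 12928 genes).

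Of 32 other genes of the ubiquitin-proteasome pathway, 31 were tested in the high fraction. In UAU cells 3 of them rose and 13 fell against control, where 13.1% of all genes were called higher and 15.5% lower. NFE2L2, an antioxidant transcription factor related to NFE2L1, had 60.7, 66.03 and 63.5 CPM in UAU and 113, 109 and 107 CPM in control cells (-0.78, SE 0.09, adjusted p = 1.6e-06, edgeR). NFE2L1 had 46.4, 54.5 and 49.7 CPM in UAU and 59.3, 57.9 and 54.3 CPM in control cells and was not called (-0.18, adjusted p = 0.178, edgeR). The groups stood apart for NFE2L2 and overlapped for NFE2L1.

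POMP, the chaperone that matures the core, rose in the UAU high fraction, with 1039, 1051 and 1082 CPM in UAU and 769.9, 793 and 827 CPM in control cells (0.43, SE 0.07, adjusted p = 0.000133, edgeR). SHFM1, also called SEM1, the small lid subunit whose symbol lies outside the member rule, rose too, with 241, 216 and 199 CPM in UAU and 152, 151 and 145 CPM in control cells (0.57, SE 0.11, adjusted p = 0.00043, edgeR). Neither gene overlapped between the lines. The ubiquitin receptor ADRM1 was not called (-0.24, adjusted p = 0.093, edgeR). The polyubiquitin gene UBB (-0.44) fell, while RPS27A (0.26), which encodes ubiquitin fused to a ribosomal protein, rose. The shuttle UBQLN1 (-0.62), the deubiquitinase USP14 (-0.52), the activator subunits PSME1 (-0.40) and PSME2 (-0.31) and the segregase genes NSFL1C (-0.47), VCP (-0.43), UFD1L (-0.43) and NPLOC4 (-0.29) fell. The shuttle RAD23B (-0.25), the activator PSME4 (-0.38) and the activating enzyme UBA1 (-0.45) fell. Of these 16 calls, 8 held when any 1 library was left out: NFE2L2, NSFL1C, POMP, PSME1, SHFM1, UBB, UBQLN1 and UFD1L. USP14 and VCP were not called without control replicate A (-0.31 and -0.24, against the values above), and the other 6 were lost without 2 or more of the 6 libraries. Among these, PSME2 was -0.18 without UAU replicate A and -0.53 without C, RPS27A was 0.17 without UAU replicate C and UBA1 was -0.29 without control replicate A.

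In the other lines fewer pathway genes were called in the high fraction. In isoswitch cells, where 7.36% of all genes were called lower, 3 of 31 fell: PSMG3 (-0.78), a core assembly chaperone, SHFM1 (-0.66) and the ligase UBE3C (-0.27), of which PSMG3 and SHFM1 held when any 1 library was left out. In GAUi cells, where 4.66% of all genes were called higher and 5.48% lower, 2 rose, POMP (0.27) and RPS27A (0.28), and 2 fell, NFE2L2 (-0.45) and UBE3C (-0.33), of which NFE2L2 and UBE3C held when any 1 library was left out. The interaction term of NFE2L2 was 1.14 (SE 0.12, adjusted p = 2.19e-07, edgeR), with 116, 97.7 and 98.7 CPM in isoswitch and 80.1, 76.9 and 83.6 CPM in GAUi cells, while those of SHFM1 and POMP were -1.16 and -0.82. In total RNA PSME2 fell in UAU (-0.42, adjusted p = 0.0302, edgeR), 3 genes fell in isoswitch cells (UBE3C, SHFM1 and PSMG3), and 3 rose and 2 fell in GAUi cells, where 0.914%, 4.05% and 10.1% of all genes were called in UAU, isoswitch and GAUi total RNA. Only PSMG3 (-0.41) and UBE3C (-0.40) in GAUi cells held there when any 1 library was left out, and neither was called with only the 6 compared libraries in the fit (adjusted p = 0.0583 and 0.0554, edgeR).

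SHFM1 also lay elsewhere on the gradient than the members. In control cells it had 152, 151 and 145 CPM in the high and 505, 444 and 577 CPM in the low fraction (-1.83, SE 0.09, adjusted p = 2.58e-10, edgeR). PSMG3 (-1.76) and PSMG4 (-0.85), core assembly chaperones, and UBA6 (-0.53), a ubiquitin-activating enzyme, were lower in the high fraction too. The other 22 genes called of 31 were higher there, where 32.8% of all genes were called higher and 33.2% lower, with UBB (2.12), PSME2 (1.82) and PSME1 (1.68) among them.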

How the data were processed

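The deposited files held raw read counts per gene symbol, 1 file per library, made by the authors from Lexogen QuantSeq 3' libraries of 500 ng RNA. Per the submitters' processing notes the tools were STAR, featureCounts and DESeq2 with the hg38 build; neither the annotation nor the strand setting is given in the sources used here. Counts were tested as deposited with edgeR 4.0.16 in R 4.3.3 (quasi-likelihood test, filterByExpr at a minimum count of 10, TMM, Benjamini-Hochberg over all genes tested, called at an adjusted p under 0.05). One fit took the 12 libraries of a fraction, another the 9 libraries of a line for high against low, and another the 24 libraries of both gradient fractions for the high-to-low ratio. A standard error is the absolute log2 fold change over the square root of F. DESeq2 1.42.0 and the fits listed in the closing section were alternatives, and the procedure was tested on simulated data. Named members were up to 6 called ones with the smallest adjusted p in a comparison, the catalytic and immunoproteasome subunits, members with a direction of their own, and up to 4 genes of each other pathway list, called ones first; values in each library are given for those that carry a result. The members and lists were chosen with earlier results of these data known. Replicate letters were not taken as pairs: in no comparison did all 3 same-letter libraries correlate over 0.1 (range -0.56 to 0.40). Isoleucine codon and amino acid content was not analysed here. Some genes of the pathway and marker lists are not reported here.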

Additional observations from a re-analysis of the deposited data

Results flagged for a closer look

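Terms that test a difference between lines are listed here as values on the log2 scale (edgeR quasi-likelihood test, all with an adjusted p under 0.05). No group held the 4 samples that a check for single outlying libraries needs. In the high fraction, the difference between isoswitch and GAUi cells lay above that between UAU and control cells for 24 members. Among base subunits the terms were 1.22 (PSMC1), 1.12 (PSMC2), 0.62 (PSMC3), 0.99 (PSMC4), 0.41 (PSMC5), 0.92 (PSMC6), 0.69 (PSMD1), 0.84 (PSMD2) and 0.70 (PSMD4). Among lid subunits they were 1.51 (PSMD12), 1.02 (PSMD6), 0.75 (PSMD3), 0.69 (PSMD14), 0.67 (PSMD11) and 0.39 (PSMD7). Among core and immunoproteasome subunits they were 1.11 (PSMA4), 0.55 (PSMA1), 0.55 (PSMA3), 0.46 (PSMA5), 0.34 (PSMA6), 0.54 (PSMB3), 0.30 (PSMB4) and 0.87 (PSMB10), and the chaperone PSMD5 had 0.64. The difference lay below for PSMD9 (-0.75), PSMA7 (-0.40) and PSMD8 (-0.33).

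The high-to-low ratio of UAU cells minus that of control cells was -0.79 (PSMD6), -0.75 (PSMD12), -0.67 (PSMC1), -0.67 (PSMA1), -0.63 (PSMD2) and -0.53 (PSMA4). Without UAU high-fraction replicate C, 15 members were called instead of 6, and 9.22% of all genes instead of 6.53%. Both sets use the same UAU and control high-fraction libraries.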

How the results depend on the processing

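Each count of members called was recomputed with RLE scaling, no filter on low counts, the replicate block, DESeq2, only the compared groups in the fit, and each library left out. The 21 calls in the UAU high fraction and the 27 of the interaction there stayed within 1.5 times under each of these, with leave-one-out ranges of 15 to 27 and 23 to 28. With all libraries 28.7% and 35.7% of all genes were called in these comparisons, and without UAU replicate C 31.4% and 38.7%. Shares of all genes for the other leave-outs are not given here. With no filter, 2 members were called in UAU total RNA (1.22% of all genes) and 1 in isoswitch total RNA (3.39%). The low fraction then had 1 in GAUi (3.68%) and 2 in isoswitch cells (2.67%). The high fraction had 5 in GAUi (7.13%) and 6 in isoswitch cells (8.13%). There was 1 for the isoswitch ratio (1.04%) and 16 for isoswitch against GAUi (10.4%). With DESeq2 there was 1 in UAU total RNA (155 of 12357 genes) and 1 in isoswitch total RNA (500 of 12357). DESeq2 also gave 1 in the GAUi low fraction (491 of 12445), 2 for the GAUi ratio (166 of 12749) and 1 for the isoswitch ratio (69 of 12749). With only the compared groups, total RNA had 5 in UAU (7.62% of all genes), 8 in isoswitch (15.8%) and 0 in GAUi cells (2.74%). Those fits gave 0 in the GAUi low fraction (2.26%). They gave 5 in the GAUi (14.5%) and 6 in the isoswitch high fraction (12.3%). The count was 17 for isoswitch against GAUi (19.1%) and 2 for the UAU ratio (1.83%). RLE scaling gave 1 for the GAUi ratio (44 of 12749 genes), and total RNA as the denominator gave 1 for GAUi (0.718% of all genes). The cause was not tested.

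Leaving out 1 library gave 0 to 10 members in GAUi total RNA, 0 to 1 in the UAU, 0 to 5 in the GAUi and 0 to 3 in the isoswitch low fraction, 1 to 2 in the GAUi and 0 to 4 in the isoswitch high fraction, and 3 to 10 for isoswitch against GAUi. Core members ran from 2 to 8 in the UAU high fraction and 5 to 9 for the interaction. The ratio had 2 to 15 in UAU, 0 to 1 in GAUi and 0 to 2 in isoswitch cells. The number of all genes called changed too, from 531 to 2134 in GAUi total RNA.

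With the replicate letter as a block, 21 members were called in the UAU high fraction, as without it. The share of all genes in that blocked fit is not given here. The GAUi low fraction had 0 members called with the block (293 of 12445 genes), against 2 without it (423 of 12445 genes). In the UAU high fraction every library correlated best with its own letter, a hint from the data and not the design. Having 3 libraries per group limits the precision of each value. With no filter the median of all genes for high against low was -0.14 in GAUi, -0.12 in isoswitch and -0.12 in control cells.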

Other observations

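Over the 12 group means of log2 CPM, the genes whose levels ran most like the mean of 36 members were HLA-B (r = 0.998), NANS (0.998), YWHAB (0.998), GHITM (0.997) and AGFG1 (0.997) among 6404 genes compared. The groups share libraries of the same lines, and most of the spread lies between fractions.

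In the RefSeq annotation, of 39 members, 17 overlap another gene and 19 have named pseudogenes, with PSMC1 at 13. PSMA3, PSMB8 and PSMD6 have named antisense genes, and how reads were assigned by strand is not given in the sources used here.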
